A study of Mus musculus with 12 samples.

Results

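The ATF4-CHOP stress effectors are 10 genes: Ddit3, Atf4, Atf5, Atf3, Trib3, Chac1, Nupr1, Sesn2, Ddit4 and Gdf15. They were chosen by symbol from a table of 28977 mouse gene IDs, with earlier results of the same libraries in view, so their differences between groups in the 5 comparisons below are descriptions and no test of the set was made. The p-values printed come from fits of all genes kept, and nothing is read from how many members passed. All 10 had a single row, and all 10 passed the low-value filter of at least 1 FPKM (fragments per kilobase of exon, scaled to the size of the library) in at least 3 of 12 libraries, as did 12026 IDs in all.

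The libraries were messenger RNA of J774A.1 cells, a mouse macrophage-like line, in 4 groups of 3. One group stayed in cell media. The other groups were exposed for 1 h to Hank's balanced salt solution (HBSS) that held no hypochlorous acid (HOCl, 0 µM, the vehicle), 20 µM HOCl or 100 µM HOCl, and every group was then kept for 24 h in full medium before RNA was taken. HOCl is the oxidant that myeloperoxidase makes, and HBSS carries no amino acids. The study used sublethal and lethal doses, and its labels do not say which dose was which. A single cell line was used, and nothing in the labels says that the 3 libraries of a group came from separate cultures, so the p-values measure the spread between these libraries, which may be technical.

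ATF4 is the transcription factor of the integrated stress response. When an eIF2α kinase senses misfolded protein in the endoplasmic reticulum, missing amino acids, missing heme or viral RNA, translation slows but the Atf4 message is translated more, and ATF4 then induces amino acid transport and synthesis genes together with Ddit3, which encodes CHOP. CHOP, ATF3 and ATF5 extend the response, TRIB3 restrains it, and prolonged CHOP activity is linked to cell death.

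Members were described on the scale of FPKM, which is per length and allows levels of different genes to be set beside each other. The values of a library rested on 17683930 to 21408514 reads, so the least abundant member, Gdf15, stood on at least 108 reads and Atf4 on at least 8018. Of 12 macrophage markers, 11 passed the filter, among them Lyz2 and Cd14. Of 25 markers of other cell types in the table, 24 were below 1 FPKM in every library, and S100a8, a neutrophil gene that other myeloid cells can also express, ranged between 9.71 and 19.1 FPKM. Cell media libraries 1 and 2 stood apart from the rest: cytosolic ribosomal protein genes took 9.21% and 9.15% of their summed FPKM, against 5.31% to 5.92% in the other 10 libraries. The members' comparisons with cell media are therefore also given without them, which leaves cell media library 3 alone in its group. In bulk RNA, fewer cells expressing a gene and less RNA per cell cannot be told apart.

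ATF4 and its C/EBP partners bind a composite site whose core is TGATGCAA, or TTGCATCA read on the other strand. The promoter windows of the members (250 bases upstream and 50 downstream of each start site) were searched on both strands, to show which of them carry this core beside the start site and which do not. All 10 genes matched the RefSeq promoter table of GRCm38.p6, with 12 windows because Atf5 and Gdf15 have a second start site. The core stood in the windows of Atf3, Chac1 and Nupr1, which is 25% of the members' windows against 0.895% of all 32851 windows in the table. Trib3 held the looser form TGATGNAA, which was present in 33.3% of the members' windows and in 3.97% of all windows. The stretches are printed 5′ to 3′ on the gene's strand, with the match in capitals.
Atf3, chr1:191183425-191183454, minus strand: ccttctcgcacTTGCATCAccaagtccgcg
Chac1, chr2:119351038-119351067, plus strand: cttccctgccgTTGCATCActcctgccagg
Nupr1, chr7:126625562-126625591, minus strand: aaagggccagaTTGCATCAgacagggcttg
Trib3, chr2:152344028-152344057, minus strand: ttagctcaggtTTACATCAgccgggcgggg

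Counting the first transcribed base as 1 and the base before it as -1, the matches began at -110 in Atf3, at -193 in Chac1, at -110 in Nupr1 and at 15 in Trib3, inside its transcribed part. All 4 matches read in the same direction on the gene's strand. The window of Ddit3, the member with the largest differences in every comparison but that of HOCl 20 µM with HBSS, held neither form. It did hold an AP-1 site, TGANTCA, the sequence bound by JUN and FOS family dimers, at -242. The 250 bases before the Ddit3 start are shown with that site in capitals.
Ddit3, chr10:127290543-127290792, plus strand: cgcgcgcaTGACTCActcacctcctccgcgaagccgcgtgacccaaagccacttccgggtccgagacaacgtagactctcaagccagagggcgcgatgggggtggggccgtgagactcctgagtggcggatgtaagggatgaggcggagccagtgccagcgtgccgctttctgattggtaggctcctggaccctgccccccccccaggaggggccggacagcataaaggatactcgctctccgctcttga

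The AP-1 letters were found in 8.33% of the members' windows and in 7.81% of all windows. CCAAT, a general promoter box, was present in 66.7% of the members' windows and in 37.4% of all windows, on either strand. A match describes the letters only, and the absence of one says nothing of sites outside the window.

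Atf4 was the most abundant member, with a mean of 253 FPKM over the 12 libraries, above 98.5% of the genes kept. It had 323, 356 and 277 FPKM in cell media, 266, 214 and 224 FPKM in HBSS, 258, 258 and 237 FPKM at HOCl 20 µM and 213, 192 and 223 FPKM at HOCl 100 µM. Its 3 cell media libraries were above all others, and the remaining groups overlapped with a neighbour in the order of means. Atf4 may share reads with processed copies elsewhere in the genome, so its values are less certain.

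Ddit3, whose product CHOP heterodimerizes with C/EBP factors, varied more than any other member, 3.93-fold between its lowest and highest library. Its values were 55.7, 47.3 and 49.0 FPKM in cell media, 26.5, 24.0 and 22.6 FPKM in HBSS, 26.6, 22.2 and 19.6 FPKM at HOCl 20 µM and 16.1, 14.2 and 15.7 FPKM at HOCl 100 µM. Cell media was apart from every other group, HBSS and HOCl 20 µM overlapped, and all 3 libraries at HOCl 100 µM were below the other 9. The annotation used for names holds a second Ddit3 ID that shares exons with this one, and that ID was not analysed here.

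Atf5 encodes a factor of the mitochondrial and cytosolic stress responses that ATF4 and CHOP induce. It measured 53.9, 42.1 and 30.8 FPKM in cell media, 26.4, 21.0 and 18.2 FPKM in HBSS, 23.5, 21.6 and 18.5 FPKM at HOCl 20 µM and 21.2, 17.3 and 21.3 FPKM at HOCl 100 µM. Beyond the higher cell media libraries, the HBSS and HOCl groups overlapped one another, and the lowest HBSS library was within the range of HOCl 100 µM. Atf3, a stress-induced repressor that also restrains inflammatory genes in macrophages, reached 165, 148 and 130.4 FPKM in cell media, 127, 107 and 101 FPKM in HBSS, 121, 122 and 118 FPKM at HOCl 20 µM and 108, 101 and 112 FPKM at HOCl 100 µM. Here too cell media was above the rest and HBSS overlapped with both doses, while HOCl 20 µM formed a narrow band above all libraries of HOCl 100 µM.

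Trib3 encodes a pseudokinase that is induced by ATF4 and CHOP and feeds back on them. It had 175, 153 and 119 FPKM in cell media, 98.5, 74.7 and 66.1 FPKM in HBSS, 92.6, 83.0 and 67.5 FPKM at HOCl 20 µM and 74.1, 52.9 and 63.7 FPKM at HOCl 100 µM. One library at HOCl 100 µM lay above the lowest library of HBSS, so these groups overlapped. Nupr1, a small stress-induced chromatin protein, had 28.3, 22.7 and 19.0 FPKM in cell media, 14.2, 11.9 and 11.2 FPKM in HBSS, 13.3, 12.7 and 11.0 FPKM at HOCl 20 µM and 9.81, 8.79 and 11.0 FPKM at HOCl 100 µM. Its highest library at HOCl 100 µM was just under its lowest in HBSS, and just above its lowest at HOCl 20 µM.

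Chac1 encodes a glutathione-degrading enzyme downstream of ATF4. Its values were 20.4, 26.7 and 16.0 FPKM in cell media, 9.84, 14.1 and 16.2 FPKM in HBSS, 11.1, 11.8 and 10.4 FPKM at HOCl 20 µM and 8.57, 7.03 and 9.22 FPKM at HOCl 100 µM. HOCl 100 µM was below every other library, whereas HBSS spread widely and its highest library passed the lowest of cell media. Sesn2, whose product senses leucine and limits mTORC1, had 20.5, 20.6 and 21.8 FPKM in cell media, 20.0, 18.8 and 19.5 FPKM in HBSS, 20.2, 18.8 and 18.4 FPKM at HOCl 20 µM and 17.8, 15.1 and 17.5 FPKM at HOCl 100 µM. Its groups were narrow, and it varied least of the members, 1.44-fold over the 12 libraries.

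Ddit4 encodes REDD1, another inhibitor of mTORC1. It had 34.2, 37.2 and 20.1 FPKM in cell media, 13.0, 17.3 and 17.3 FPKM in HBSS, 16.0, 15.2 and 13.6 FPKM at HOCl 20 µM and 13.5, 10.9 and 11.9 FPKM at HOCl 100 µM. Cell media library 3 was much closer to HBSS than libraries 1 and 2 were, and the lowest HBSS library lay within the range of HOCl 100 µM. Gdf15, a secreted stress hormone, was the least abundant member, with 10.1, 10.5 and 8.05 FPKM in cell media, 5.95, 5.00 and 5.15 FPKM in HBSS, 6.64, 6.63 and 4.97 FPKM at HOCl 20 µM and 4.16, 3.29 and 4.52 FPKM at HOCl 100 µM. All 3 of its libraries at HOCl 100 µM were below the others.

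**Figure D1:**
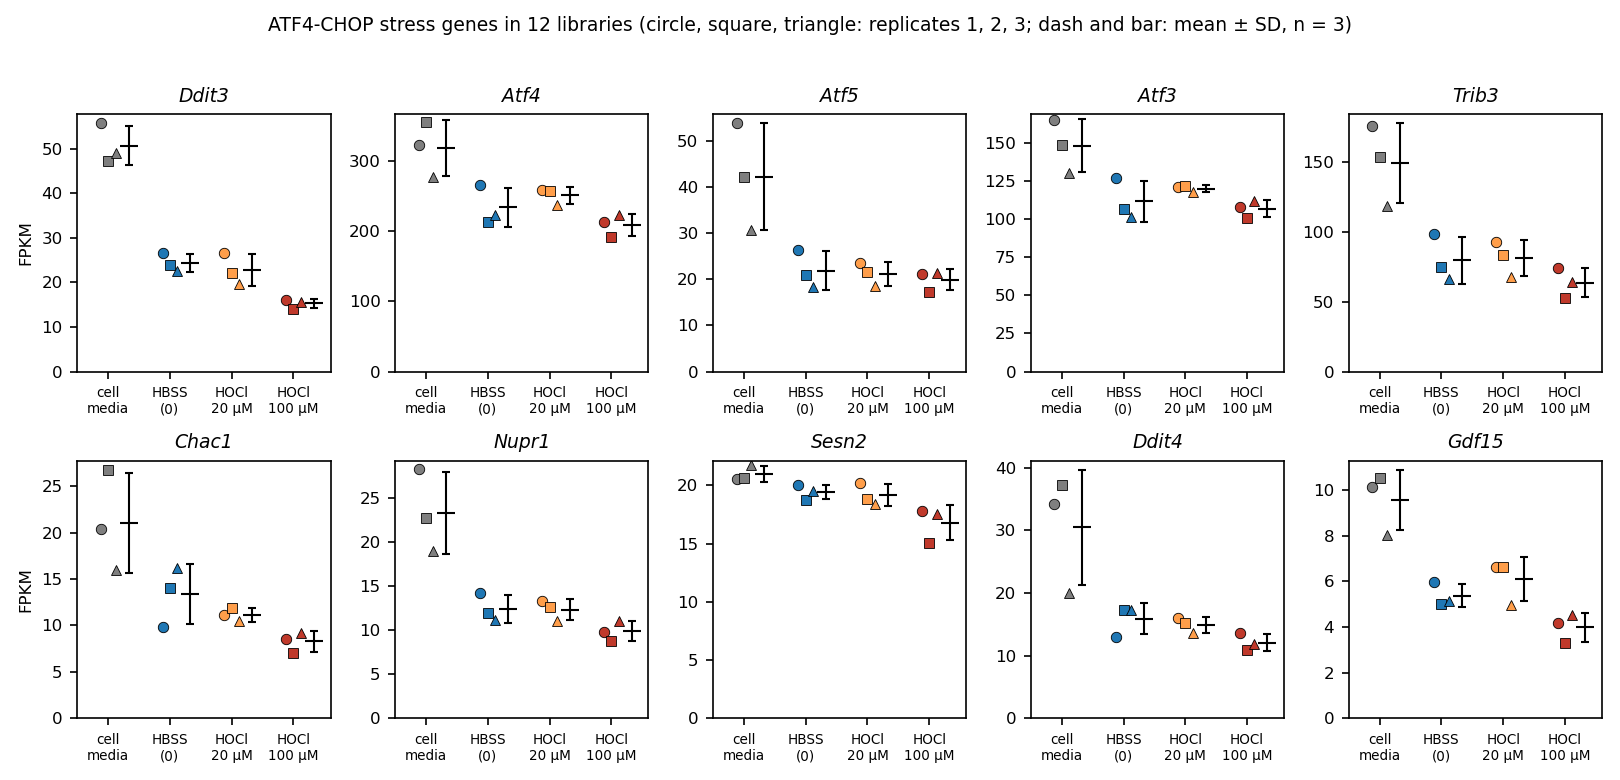
FPKM of the 10 genes (vertical axis, from 0) by group (horizontal axis), each symbol 1 library and the dash with bar the mean ± SD of 3 libraries. Every gene has its highest library in cell media and its lowest at HOCl 100 µM, which is replicate 2 in all 10 genes.

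The comparison of HOCl 100 µM with HBSS asks what the higher dose adds to the vehicle. All 10 genes were lower on average at HOCl 100 µM, with a median log2 difference of -0.31 against -0.01 over the genes kept, and none passed limma's test at an adjusted p under 0.05. Ddit3 averaged 15.3 ± 1.02 FPKM at HOCl 100 µM and 24.4 ± 1.97 FPKM in HBSS (SD, n = 3 each), a log2 difference of -0.64 ± 0.11 (SE) with an adjusted p of 0.374. Chac1 followed at -0.61 ± 0.19, with 8.27 ± 1.13 FPKM at HOCl 100 µM and 13.4 ± 3.24 FPKM in HBSS and an adjusted p of 0.602. Differences of the other members were -0.36 for Ddit4, -0.36 for Gdf15, -0.31 for Trib3, -0.30 for Nupr1, -0.20 for Sesn2, -0.16 for Atf4, -0.12 for Atf5 and -0.06 for Atf3. Ddit3, Chac1, Nupr1, Sesn2 and Gdf15 had every library at HOCl 100 µM below every HBSS library. That is 5 of 10 members, where 17.6% of the genes kept did so. The share of genes called in this comparison was 0% of 12026, and 933 genes had an unadjusted p under 0.05. In a fit without cell media libraries 1 and 2, 16 genes were called lower (0.133%), none of them a member, and Ddit3 stood at an adjusted p of 0.0514.

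The 2 libraries that moved this comparison most were HBSS library 1 and HOCl 100 µM library 2. Without HBSS library 1 the members' median was -0.20, 8 of 10 were lower, and Atf5 and Atf3 were at 0.02 and 0.04. Without HOCl 100 µM library 2 the median was -0.21 and all 10 were still lower. The log2 difference of Ddit3 ranged between -0.69 and -0.58 as each library was left out. S100a8, the marker of another cell type that was present, stood at 13.9, 16.4 and 16.3 FPKM at HOCl 100 µM, against 9.83, 11.7 and 12.7 FPKM in HBSS, and macrophage markers were higher for 9 of 11 genes. The part of either in the members' values was not tested.

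At HOCl 20 µM no member stood apart from HBSS. The groups of all 10 genes overlapped, against 3.48% of genes kept that were lower without overlap, and limma called 0% of genes, while 130 genes had an unadjusted p under 0.05. The log2 differences lay between -0.22 for Chac1 and 0.15 for Gdf15, 6 of 10 were below 0, and the median was -0.01. The interval of Ddit3 was -0.35 to 0.15 (95%), with a difference of -0.10 ± 0.11 (SE) and an adjusted p near 1 by limma. Small differences of either sign lay inside it, and the difference at the higher dose, -0.64 ± 0.11 (SE), lay outside. Both rest on the same HBSS libraries and the interval is not adjusted, so it does not compare the doses. Without HBSS library 1 the median became 0.09, and without HOCl 20 µM library 3 it became 0.06.

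Between the doses, all 10 genes were lower at HOCl 100 µM than at HOCl 20 µM, with a median of -0.29 against -0.02 over the genes kept. Ddit3 differed by -0.54 ± 0.11 (SE), Gdf15 by -0.50 ± 0.14 and Chac1 by -0.39 ± 0.19. Gdf15 averaged 3.99 ± 0.635 FPKM at HOCl 100 µM and 6.08 ± 0.961 FPKM at HOCl 20 µM (SD, n = 3 each). Ddit3, Atf4, Atf3, Chac1, Sesn2, Ddit4 and Gdf15 did not overlap, 7 of 10 members against 15.6% of the genes kept. The share of genes called was 0%, though 481 had an unadjusted p under 0.05, and the members' adjusted p were between 0.825 and 0.892 by limma. Atf5 was at 0.01 when HOCl 100 µM library 2 was left out. The 5 comparisons share libraries with one another, so their values are given side by side only.

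The comparison of HBSS with cell media shows what the vehicle exposure alone goes with. Every member was lower in HBSS than in cell media, by a median log2 difference of -0.79 against 0.10 over the genes kept. Ddit3, at -1.02 ± 0.11 (SE), was the only member called, with an adjusted p of 0.0284 by limma, and 0.0166% of genes (2) were called. Atf5, Trib3, Ddit4, Nupr1, Gdf15 and Chac1 differed by -0.90, -0.90, -0.86, -0.85, -0.73 and -0.61, and Atf4 and Atf3 by -0.44 and -0.40, with adjusted p of 0.0711 to 0.0717 for these 8. Sesn2 differed by -0.10 ± 0.08 (SE, adjusted p = 0.308) and was at 0.08 once libraries were scaled to an equal FPKM sum. All members but Chac1 were without overlap, 9 of 10 against 8.91% of the genes kept.

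With cell media library 3 as the only cell media library, the 10 differences stayed below 0 with a median of -0.41, Ddit3 was at -0.98, and limma called no gene, although 823 had an unadjusted p under 0.05. Leaving out cell media library 3 instead gave 9 called members among 7852 called genes, and leaving out any 1 HBSS library, any 1 HOCl 100 µM library, HOCl 20 µM library 2, or cell media library 1 or 2 gave 0. Scaling libraries to an equal FPKM sum moved the median of the genes kept to 0.26 in this comparison. Relative to it the members' median was -0.86, against -0.89 as deposited.

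Across the whole range, HOCl 100 µM against cell media, all 10 members fell, by a median of -1.12 on the log2 scale against 0.07 over the genes kept. They were among the 8.75% of genes called by limma, and every one was without overlap, against 8.22% of the genes kept. Ddit3 averaged 15.3 ± 1.02 FPKM at HOCl 100 µM and 50.7 ± 4.41 FPKM in cell media (SD, n = 3 each), a log2 difference of -1.66 ± 0.11 (SE) with an adjusted p of 0.000218. The log2 differences were -1.23 for Chac1, -1.22 for Ddit4, -1.21 for Trib3, -1.15 for Nupr1, -1.08 for Gdf15 and -1.02 for Atf5. Atf4, Atf3 and Sesn2 differed least, by -0.60, -0.46 and -0.31. The adjusted p of these 9 genes were between 0.00816 and 0.0394. These calls leaned on single libraries. Without cell media libraries 1 and 2, Ddit3, Nupr1 and Gdf15 were called among 263 genes, 2.19% of those kept, the median was -0.78 and all 10 were lower. Leaving out HOCl 100 µM library 2 left 1 member called, Ddit3, among 7 genes (0.0582%), and leaving out HOCl 100 µM library 3 left 3 among 12 (0.0998%). There were 3 called members among 45 genes (0.374%) without cell media library 1, and 6 among 137 (1.14%) without HOCl 100 µM library 1.

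**Figure D2:**
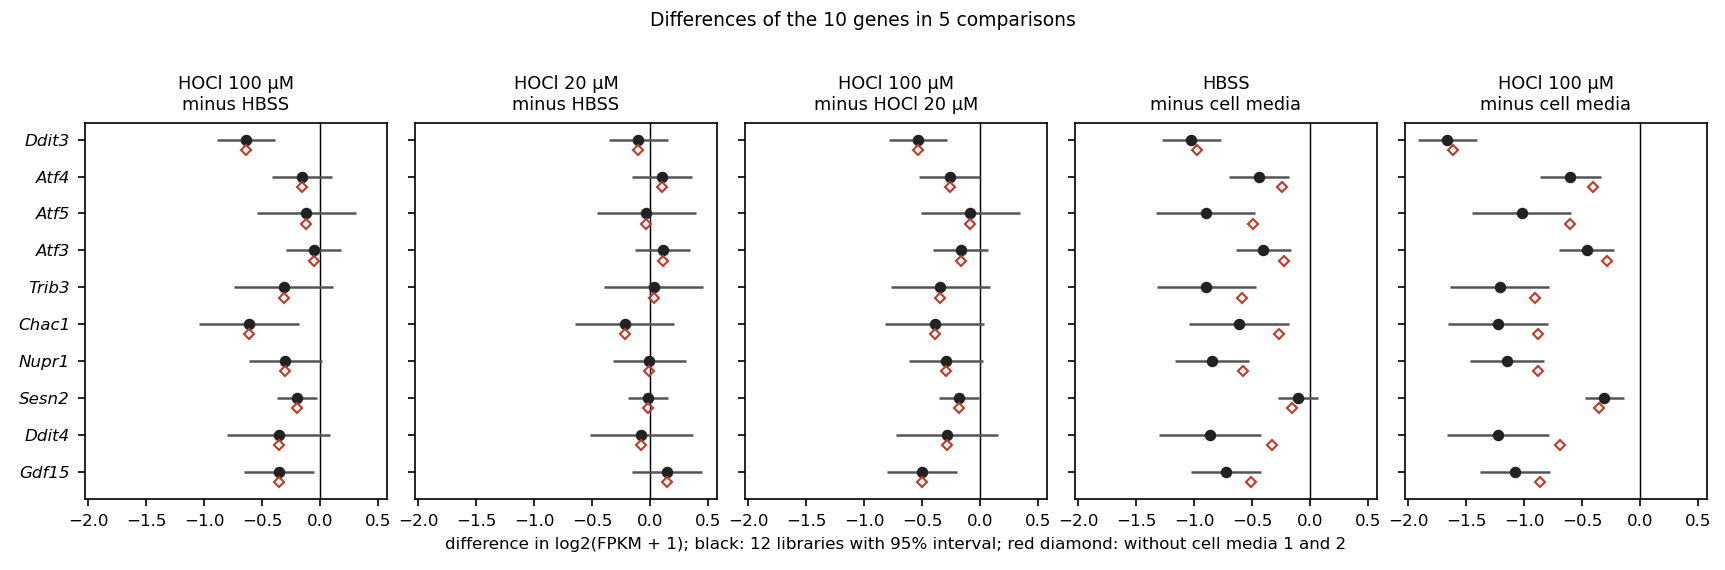
Differences in log2(FPKM + 1) (horizontal axis) of the 10 genes (rows) in 5 comparisons (panels), with 95% intervals from limma over 12 libraries, and as red diamonds the values without cell media libraries 1 and 2. The differences at HOCl 20 µM lie around 0, those of HOCl 100 µM and of HBSS against cell media lie below it, and the diamonds shift toward 0 for all genes but Sesn2 where cell media is the control.

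Since library scaling touches all genes of a library alike, each member was also expressed as a percentage of the Atf4 FPKM of its own library. These values were computed after the differences were known and were not tested. The Ddit3 level was 17.2%, 13.3% and 17.7% of that of Atf4 in cell media, 9.99%, 11.2% and 10.1% in HBSS, 10.3%, 8.60% and 8.28% at HOCl 20 µM, and 7.57%, 7.38% and 7.04% at HOCl 100 µM. The libraries at HOCl 100 µM were thus below all others, and those of cell media above all others. Gdf15 showed the same separation at HOCl 100 µM, with 1.90 ± 0.166% of Atf4, against 2.30 ± 0.0498% in HBSS (SD, n = 3 each). Between HOCl 100 µM and HBSS the percentages of Trib3, Chac1, Ddit4 and Atf5 overlapped. Their means were 30.4%, 3.95%, 5.79% and 9.51% at HOCl 100 µM, and 33.9%, 5.85%, 6.91% and 9.30% in HBSS. Nupr1 had 4.61%, 4.59% and 4.96% at HOCl 100 µM, below its HBSS libraries but overlapping those of HOCl 20 µM. Atf3 differed little between groups, at 46.6 ± 4.71% in cell media, 47.7 ± 2.28% in HBSS, 47.8 ± 1.56% at HOCl 20 µM and 51.2 ± 1.28% at HOCl 100 µM. Sesn2 ran the other way from most members, with 8.35 ± 0.714% in HBSS and 6.67 ± 1.07% in cell media.

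**Figure D3:**
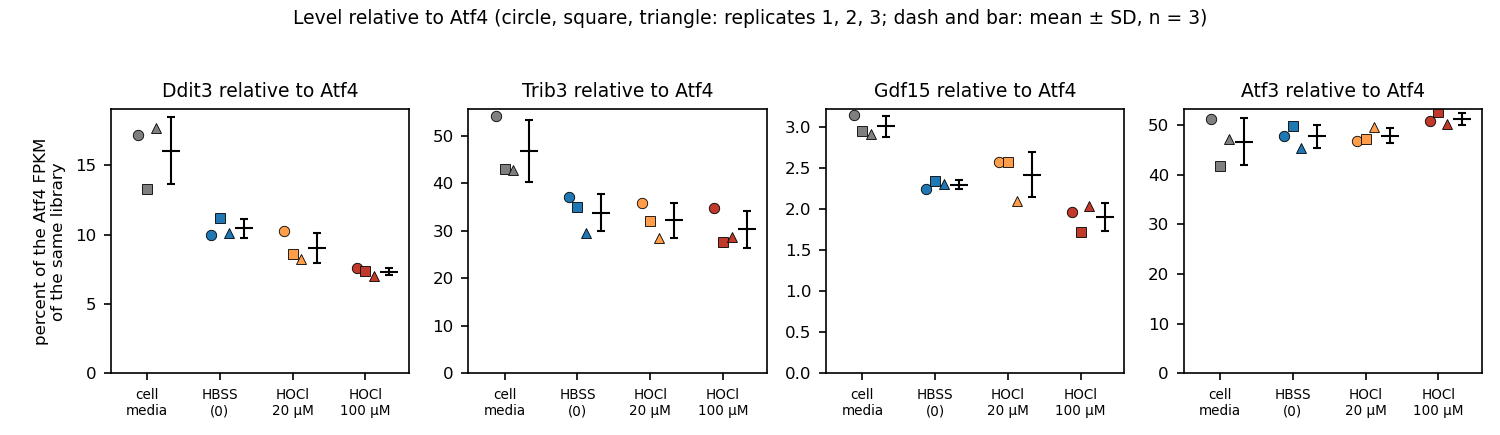
FPKM of Ddit3, Trib3, Gdf15 and Atf3 as a percentage of the Atf4 FPKM of the same library (vertical axis, from 0) by group, each symbol 1 library, dash and bar the mean ± SD of 3. Ddit3 is at 7.04% to 7.57% at HOCl 100 µM, below every other library, while Atf3 stays between 41.7% and 52.6% in all groups.

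The members were also compared in how they varied among replicates. After the mean of each group was removed, Chac1 and Ddit4 varied together, with a Pearson correlation of 0.84 over the 12 deviations, and the other 8 genes correlated among themselves with a median of 0.76 (0.18 to 0.97 over 28 pairs). Between Chac1 or Ddit4 and the other 8 the median was 0.21 over 16 pairs, and 3 pairs were below 0. The grouping was chosen after these correlations were seen and is not a clean one: Ddit4 had 0.48 with Atf5 and 0.53 with Gdf15, above the 0.24 of Sesn2 with Atf5. It also rested on HBSS library 1, where Chac1 and Ddit4 were at their lowest of the HBSS group and the other 8 at their highest. Without that library Chac1 and Ddit4 correlated at 0.83, the other 8 had a median of 0.70, and the median between Chac1 or Ddit4 and the other 8 was 0.62. The deviations share library preparation and depth, and these correlations are descriptions. Over the 12 libraries with group means left in, the 45 pairs had correlations of 0.65 to 0.98, and of 0.22 to 0.96 without cell media libraries 1 and 2.

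**Figure D4:**
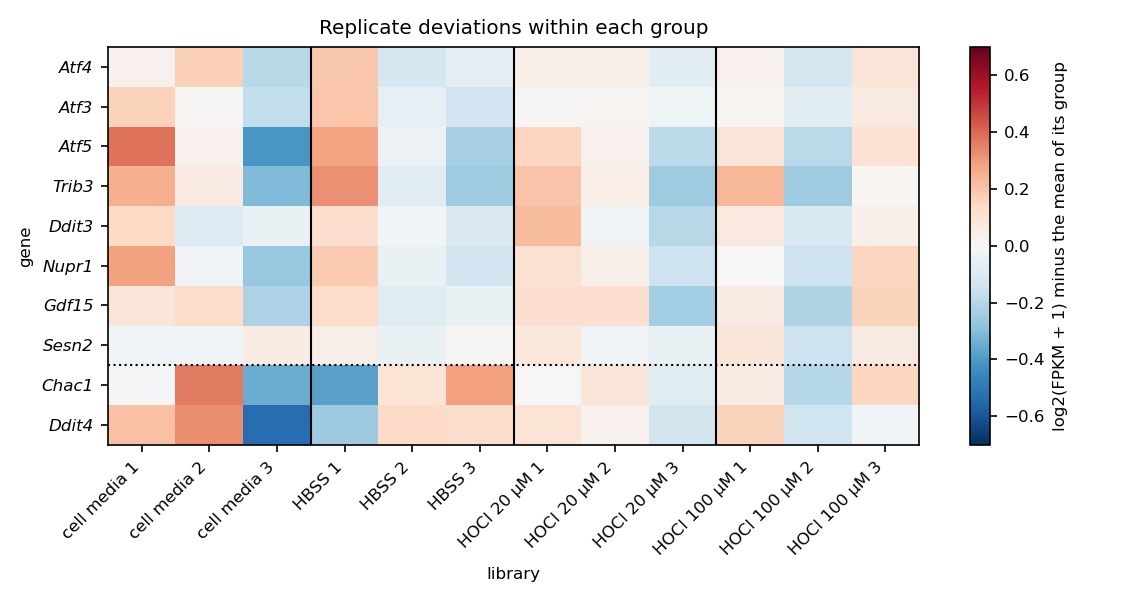
Deviation of log2(FPKM + 1) from the mean of its own group (colour) for 10 genes (rows) in 12 libraries (columns). Chac1 and Ddit4, under the dotted line, are below the mean in HBSS library 1, where the other 8 are above it.

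The rest of the pathway was read from 10 lists of genes, chosen with earlier results known. Unless said otherwise, genes named from a list were those with its smallest p at HOCl 100 µM against HBSS, up to 3. Their separation in that comparison partly follows from this choice. Of the upstream kinases, phosphatases and relays of eIF2, 19 of 19 were kept and 10 were lower at HOCl 100 µM than in HBSS, with a median of -0.02. Ppp1r15b, a constitutive partner of the eIF2α phosphatase, averaged 28.7 ± 2.47 FPKM at HOCl 100 µM and 36.2 ± 1.63 FPKM in HBSS. Dele1, which relays mitochondrial stress to HRI, averaged 2.86 ± 0.150 FPKM at HOCl 100 µM and 3.45 ± 0.303 FPKM in HBSS. Eif2b4, a subunit of the exchange factor eIF2B, was higher, 14.1 ± 0.560 FPKM at HOCl 100 µM and 11.4 ± 1.30 FPKM in HBSS (SD, n = 3 each). None of the listed genes outside the members passed the test in this comparison. In HBSS 14 of the 19 genes of the eIF2 list were higher than in cell media, with none called. The median was 0.28, and 0.09 without cell media libraries 1 and 2. At HOCl 100 µM against cell media 14 were higher too, with a median of 0.23, and 0.14 without those libraries. By the test, 4 of the 19 rose there and none fell, where 5.95% of the genes kept rose and 2.79% fell. Without cell media libraries 1 and 2, 2 rose and 1 fell, where 0.923% of the genes kept rose and 1.26% fell.

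Most targets of ATF4 other than the members were also lower at HOCl 100 µM than in HBSS, though none was called. Of 40 listed, 33 were kept, 31 of these were lower at HOCl 100 µM than in HBSS, where 51.5% of all genes kept were lower, and the median was -0.18. By library, the list's median deviation from each gene's mean of 12 libraries was 0.15, -0.01 and -0.09 in HBSS. It was -0.04, -0.23 and -0.12 at HOCl 100 µM. The libraries thus overlapped, and HBSS library 1 was the highest of them. Slc7a5, the large neutral amino acid transporter, averaged 57.7 ± 6.43 FPKM at HOCl 100 µM and 65.5 ± 1.75 FPKM in HBSS. Slc38a2, the SNAT2 transporter, averaged 50.6 ± 4.09 FPKM at HOCl 100 µM and 64.3 ± 2.60 FPKM in HBSS, and Slc1a4 averaged 8.84 ± 1.40 FPKM at HOCl 100 µM and 11.2 ± 1.19 FPKM in HBSS (SD, n = 3 each). At HOCl 20 µM 13 of 33 were lower than in HBSS, where 46.1% of all genes kept were lower. In HBSS 21 of 33 were lower than in cell media, where 38.8% of all genes kept were lower, with a median of -0.10 beside the members' -0.79. These medians were -0.20 for the targets and -0.41 for the members without cell media libraries 1 and 2. At HOCl 100 µM against cell media 25 of 33 were lower and 8 higher, and limma called 9 lower and none higher. Among the 9 were Asns, asparagine synthetase, and Pycr1, a proline synthesis enzyme, both named after their values were seen. Of the genes kept, 2.79% were called lower and 5.95% higher. Asns averaged 91.4 FPKM at HOCl 100 µM and 131 FPKM in cell media. The median of the 33 was -0.17 in this comparison, and -0.36 without cell media libraries 1 and 2. TGATGCAA was present in 16.1% of the 31 promoter windows found for the 40 listed targets, against 0.895% of all windows. These 31 windows belonged to 24 genes, kept or not.

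Most genes of the other branches of the unfolded protein response were higher. Of 21 genes of the IRE1 and ATF6 branches, all kept, 14 were higher at HOCl 100 µM than in HBSS, with a median of 0.11 and none called. Of the 12026 genes kept, 5836 were higher. The list's median deviation by library was -0.08, 0.04 and 0.11 in HBSS and 0.10, 0.31 and 0.26 at HOCl 100 µM. These libraries overlapped. Dnajb11, an endoplasmic reticulum co-chaperone, averaged 51.0 ± 3.48 FPKM at HOCl 100 µM and 42.4 ± 3.42 FPKM in HBSS. Ern1, which encodes the sensor IRE1α itself, averaged 4.38 ± 1.19 FPKM at HOCl 100 µM and 7.25 ± 1.46 FPKM in HBSS (SD, n = 3 each). In HBSS 14 of the 21 were already higher than in cell media and 7 lower, with a median of 0.27 and none called. Without cell media libraries 1 and 2 this median was 0.20. Of the 12026 genes kept, 7354 were higher in HBSS than in cell media. Against cell media 15 of the 21 were higher at HOCl 100 µM and 6 lower, and limma called 10 higher and 2 lower. Among the 10 were Dnajb11, Creld2 and the chaperone Hspa5 (BiP), the last named after its values were seen. Of the genes kept, 5.95% were called higher and 2.79% lower. Hspa5 averaged 274 FPKM at HOCl 100 µM and 145 FPKM in cell media, a log2 difference of 0.96 ± 0.19 (SE, adjusted p = 0.0246 by limma). The median of the 21 was 0.40 in this comparison, and 0.28 without cell media libraries 1 and 2.

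**Figure D5:**
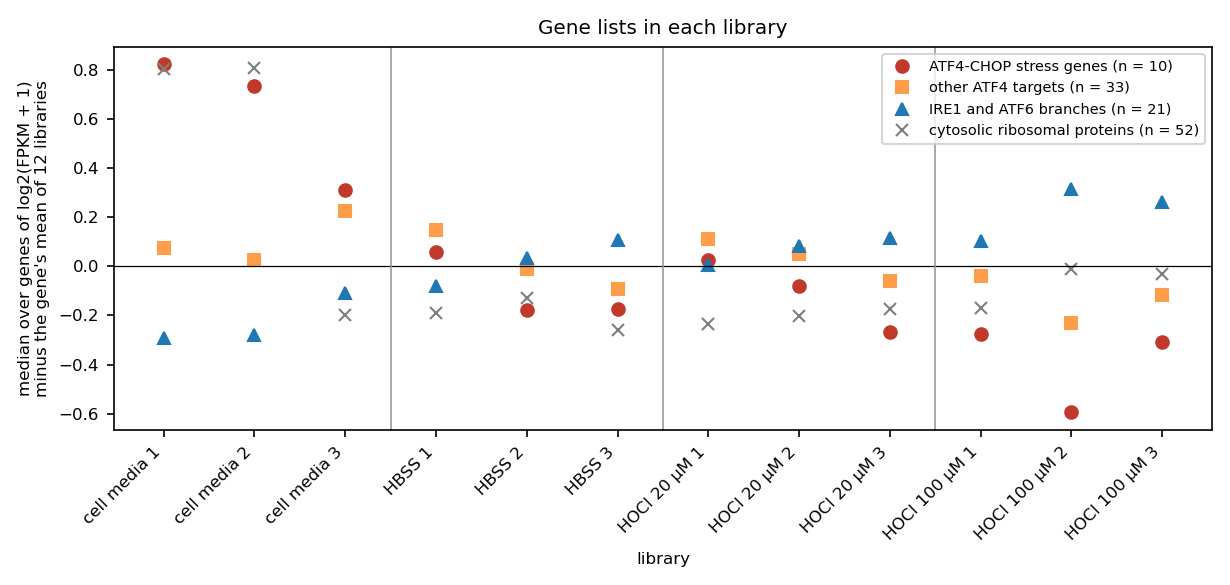
Median over a list's genes of log2(FPKM + 1) minus each gene's mean of 12 libraries (vertical axis) for 4 lists in each library (horizontal axis). The members are at 0.82 and 0.74 in cell media libraries 1 and 2, where the ribosomal protein list is at 0.80 and 0.81, and at 0.31 in cell media library 3, where that list is at -0.20. At HOCl 100 µM the members lie between -0.59 and -0.27 and the IRE1 and ATF6 branches between 0.10 and 0.31.

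Of 24 genes of the bZIP family, some of which dimerize with ATF4, CHOP or ATF3, 22 were kept. Of these, 16 were lower at HOCl 100 µM than in HBSS, with a median of -0.15. Jun, the AP-1 subunit, had 25.5, 26.3 and 26.8 FPKM at HOCl 100 µM, against 36.3, 29.0 and 31.3 FPKM in HBSS, without overlap. The small Maf genes Mafg and Mafk were also without overlap, at log2 differences of -0.26 and -0.21. In all, 8 of the 22 were lower without overlap and 2 higher, where 17.6% of the genes kept were lower in this way. Against cell media 16 of the 22 were lower at HOCl 100 µM and 6 higher. Limma called 6 lower, Mafg and Mafk among them, and none higher, where 2.79% of the genes kept were called lower. The median was -0.25, and -0.23 without cell media libraries 1 and 2. Of 10 kept genes of CHOP targets and apoptosis, 6 were lower at HOCl 100 µM than in HBSS, with a median of -0.05. Lower without overlap, as were 17.6% of the genes kept, were Bbc3 (PUMA) at -0.45, Bcl2l11 (BIM) at -0.22 and the survival gene Bcl2 at -0.45. Higher without overlap, as were 16.5% of the genes kept, were Pmaip1 (NOXA) at 0.16, Bax at 0.26 and Bak1 at 0.18, named after their values were seen. Against cell media limma called 1 of the 10 lower at HOCl 100 µM, Bbc3, and none higher, where 2.79% of the genes kept were called lower. The list's median was -0.25, and -0.27 without cell media libraries 1 and 2.

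The targets of p53 share genes such as Sesn2 and Ddit4 with this pathway. Of 14 kept from their list, 7 were lower at HOCl 100 µM than in HBSS, with a median of -0.01. Cdkn1a and Ccng1 were higher by 0.23 and 0.32 without overlap, and Btg2 lower by -0.26. In all, 3 of the 14 were higher without overlap and 1 lower, where 16.5% of the genes kept were higher in this way and 17.6% lower. The 24 kept genes of mTORC1 signalling, the pathway that SESN2 and REDD1 restrain, had a median of 0.01, and 13 of the 24 were higher at HOCl 100 µM than in HBSS. Lower without overlap were 4 of them, among them Tsc1 at -0.23, Wdr59 at -0.21 and Mlst8 at -0.14, and 5 were higher without overlap. These 2 counts are near the shares of all genes kept, 17.6% lower and 16.5% higher. Cytosolic ribosomal protein genes were higher for 50 of 52, with a median of 0.11, and may share reads with their processed copies. None of these was called by limma in this comparison.

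Genes other than the members were ranked by how closely their log2(FPKM + 1) followed that of Ddit3, by the lower of Pearson's r over the 12 libraries and over the 10 without cell media libraries 1 and 2, among 7284 genes that averaged 5 FPKM or more. The leading 6 were Tgif1 (r = 0.98 over 12 libraries), Ensa (0.97), Bbc3 (0.97), Thap3 (0.95), Mllt11 (0.95) and Mgat4b (0.96). Over the 10 libraries their r was 0.98, 0.97, 0.99, 0.96, 0.95 and 0.95 in the same order. Of the members, Nupr1 was the most like Ddit3, with r of 0.96 over 12 libraries and 0.96 over 10, and Atf3 the least over 10 libraries, with 0.70. The libraries share group means and preparation, so these are descriptions. Bbc3, the BH3-only gene PUMA that CHOP and p53 both induce, had 25.7, 20.6 and 15.1 FPKM in cell media, 10.6, 9.64 and 9.82 FPKM in HBSS, 10.0, 9.49 and 8.04 FPKM at HOCl 20 µM and 7.23, 6.37 and 7.64 FPKM at HOCl 100 µM. Its cell media libraries were above all others and its HOCl 100 µM libraries below all others, the order that Ddit3 has.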

How the data were processed

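Polyadenylated RNA of 12 J774A.1 libraries was measured. The deposited table holds FPKM values that the authors made. HISAT2, featureCounts and the GRCm39 build are named per the submitters' processing notes. Their versions, settings and strand are not given in the sources used here. With 2 instruments named in the labels and no library assigned to either, no instrument batch could be compared.

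The members and lists were chosen with earlier results of these data known. Symbols and exon lengths came from GENCODE M21, and 28302 of 28977 IDs had a symbol. Reads were recovered from steps in the values below 1 FPKM (98.26% whole within 0.01), for depth and for limma-voom only. Genes with FPKM of at least 1 in at least 3 libraries were kept. Each comparison was tested on log2(FPKM + 1) with limma 3.58.1 in R 4.3.3, as 1 model of 12 libraries with a mean-variance trend, two-sided, with Benjamini-Hochberg adjustment over 12026 genes. Fold changes on this scale understate those of low genes. Genes were called at an adjusted p under 0.05, and SE and 95% intervals are limma's. A permutation of 3 against 3 libraries cannot give p under 0.1, so none was run.

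Named genes were the members, up to 3 genes with the smallest p at HOCl 100 µM against HBSS per list, and the 6 genes most like Ddit3. Alternatives were another pseudocount, filters, scalings, model terms and leaving out libraries. Scaling to an equal FPKM sum and limma-voom with 10 libraries were added after the data were seen. Promoters were RefSeq windows of GRCm38.p6, a different build from the notes, so their coordinates belong to those windows only. Python 3.11.15, pandas 2.3.3 and matplotlib 3.10.9 were used.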

Additional observations from a re-analysis of the deposited data

How the results depend on the processing

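Over 26 settings and 5 comparisons, 690 of the members' single-gene values differed from the reported ones. Of these 14 changed sign, 10 of them in HOCl 20 µM against HBSS, and none of the 14 was called. Among all 1300 values 80 calls were lost and 43 gained, and the causes were not tested. Counts are given as members and genes called. With library weights (whose estimation stopped before convergence) they were 6 and 3401 for HOCl 100 µM against HBSS, 9 and 6084 against HOCl 20 µM, 9 and 7501 for HBSS against cell media, and 6540 genes with a members' median of -1.38 for HOCl 100 µM against cell media; HOCl 20 µM against HBSS had 158 genes. With no filter, genes called were 1 for HOCl 100 µM against HBSS, 6 for HOCl 20 µM against HBSS, 11 between the doses, 5 for HBSS against cell media, and 6 members and 186 genes for HOCl 100 µM against cell media. A model of only the 2 groups compared gave 2, 1, 0 and 2 genes for HOCl 100 µM against HBSS, HOCl 100 µM against HOCl 20 µM, HBSS against cell media and HOCl 100 µM against cell media, with 0 members in HBSS against cell media and 1 in the last. For HBSS against cell media, genes called were 1 with a mean of at least 5 FPKM, 4 with quantile normalization, 5 without the trend and 4 with limma-voom.

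Without cell media libraries 1 and 2, HOCl 100 µM against HBSS had 29 genes, HBSS against cell media 0 members, 0 genes and a median of -0.41, and HOCl 100 µM against cell media 3 members, 263 genes and a median of -0.78. Limma-voom with those 10 libraries, added after the data were seen, gave 2 members and 754 genes for HOCl 100 µM against HBSS, 0 and 0 with a median of -0.43 for HBSS against cell media, and 2285 genes with a median of -0.82 for HOCl 100 µM against cell media. Scaling to an equal FPKM sum, also added then, gave 0 members and 0 genes for HBSS against cell media and 353 genes for HOCl 100 µM against cell media.

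Correlations of deviations between same-numbered libraries were mixed, from -0.42 to 0.41, and whether these libraries pair was not tested. The lowest, -0.42 and -0.29, were between HOCl 100 µM and cell media. Among HBSS and the 2 HOCl doses, replicate 1 had 0.26, 0.35 and 0.38. There replicate 2 had 0.08, -0.06 and 0.05, and replicate 3 had -0.03, 0.12 and 0.41. With the replicate number as a block, HBSS against cell media had 5 members and 193 genes. The block with 10 libraries gave 3 members and 2979 genes for HOCl 100 µM against HBSS, 3 and 2088 between the doses, 0 and 0 with a median of -0.45 for HBSS against cell media, and 4470 genes with a median of -0.74 for HOCl 100 µM against cell media.

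Leaving out each library in turn gave 0 to 5 genes for HOCl 100 µM against HBSS, 0 to 1 between the doses, 0 to 9 members and 0 to 7852 genes for HBSS against cell media, and 1 to 10 members and 7 to 6815 genes for HOCl 100 µM against cell media. Where this left a group with fewer libraries, the spread was pooled over the rest.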
